A study of Mus musculus with 9 samples.

Results

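The regions described here are the ATAC-seq peaks in the variable gene parts of the 3 mouse immunoglobulin loci, the heavy chain locus on chromosome 12, the kappa light chain locus on chromosome 6 and the lambda light chain locus on chromosome 16. They are every peak overlapping chr12:113430000-116010000, chr6:67550000-70730000 or chr16:19020000-19265000 (build mm10). This rule uses position and no values of the peaks, but the windows were chosen with earlier results of these data known. The windows hold 143 of the 61540 peaks of the study, 24 in the heavy, 96 in the kappa and 23 in the lambda window.

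ATAC-seq maps accessible chromatin, because the transposase it uses cuts and tags DNA that is open, so that reads pile up there. The libraries came from age-associated B cells (ABC), a B cell subset that builds up with age and in lupus, sorted by flow cytometry from the spleen. The animals were 20-week-old chimeras of the MRL/lpr (MRL.Faslpr) strain, whose Fas mutation leads to a disease like human lupus, and their bone marrow was a mixture of 3 genotypes. Cells lacking the endosomal DNA receptor TLR9 (TLR9-/-, here KO), cells homozygous for its P915H form, which the title of the series calls non-signaling (P915H/P915H, here P915H), and cells with intact TLR9 (WT) gave 3 samples each, 9 in all. The lpr background and the chimeric setting were thus common to all groups, WT included. No label tells which cells of the hosts remained, which samples were taken from a common host, or whether replicates are separate animals. The p-values hence cover only the spread among these libraries, part of which may be technical.

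B cells build their antigen receptor by joining 1 variable (V), in the heavy chain 1 diversity (D), and 1 joining (J) segment out of many, a reaction carried out by the Rag1 and Rag2 recombinase that in the usual case deletes or inverts the DNA in between. Each V segment has its own promoter, whose conserved octamer is bound by Oct factors (Pou2f1, Pou2f2) with their coactivator Pou2af1, and Pax5, Ctcf and Yy1 act on the folding of the heavy chain locus. In the mouse heavy chain locus the Ighv2 and Ighv5 families lie near the D and J segments, and the large Ighv1 and the interspersed Ighv8 families lie far from them. Because a rearranged allele lacks or moves part of its V region, fewer copies of a segment and less open chromatin on each copy cannot be told apart in these bulk samples.

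The windows differed in how densely they were covered. The lambda window of 0.245 Mb had 93.88 peaks per Mb, the kappa window of 3.18 Mb 30.19 and the heavy window of 2.58 Mb 9.3. In the gene table (RefSeq, GRCm38.p6), 9 of 184 heavy V segments, of which 63 are pseudogenes, had a peak within 1 kb, and so did 48 of 162 kappa and 3 of 3 lambda V segments. None of the 20 D segments had one, while 2 of 5 kappa J, 4 of 5 lambda J, 1 of 1 kappa constant and 1 of 4 lambda constant segments did. Of the 143 peaks, 86 lay in or within 1 kb of a V segment, 5 of a J segment and 4 of a constant segment, 45 lay between genes and 3 in another gene.

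Sequence at the build of the files was at hand for 1 of the 143 peaks, because the table of RefSeq promoters (GRCm38.p6) has no windows for V segments. That peak, chr6:70718835-70719050, lies at the start of Gm46961, a long noncoding RNA gene on the minus strand between the last kappa V segment and the kappa J segments. Its promoter window chr6:70718827-70719126 (minus strand) is shown because, of the accessible sites between the last kappa V and the first J segment, it alone had sequence at hand. Capitals mark the 216 bases inside the peak when both its end coordinates are included. Whether the file counts positions from 0 or from 1 is not stated in the sources used here, so the edge in the window may be off by 1 base.
Gm46961: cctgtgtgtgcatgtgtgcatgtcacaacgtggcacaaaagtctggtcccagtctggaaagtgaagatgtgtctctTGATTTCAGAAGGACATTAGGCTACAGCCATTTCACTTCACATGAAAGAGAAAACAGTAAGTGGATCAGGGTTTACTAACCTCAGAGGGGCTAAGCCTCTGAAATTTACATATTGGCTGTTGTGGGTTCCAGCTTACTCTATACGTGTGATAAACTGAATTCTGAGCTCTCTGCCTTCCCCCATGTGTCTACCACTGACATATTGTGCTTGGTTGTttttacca
The window was searched on both strands for the octamer ATGCAAAT of V promoters, the heptamer CACAGTG and nonamer ACAAAAACC of recombination signals, and the E-boxes CAGGTG and CAGCTG, and held none of these letters. Among all 32851 promoter windows of the table, 1.74%, 6.81%, 0.371%, 20.2% and 16.3% held them, in the same order. The accessibility of this peak was alike in all samples, at 3.15 ± 0.04 in KO, 3.12 ± 0.08 in WT and 3.09 ± 0.10 in P915H (log2, SD, n = 3).

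Accessibility is given as the deposited log2 value, which is scaled like CPM of reads in peaks (reads scaled to a fixed total per sample), and levels of different peaks are compared as CPM per kb of peak. Median levels were 17.5 CPM per kb in the heavy, 35.6 in the kappa and 91.8 in the lambda window, beside 35.4 over all peaks. Of the heavy peaks 6 of 24 lay above that overall median, of the kappa peaks 48 of 96 and of the lambda peaks 14 of 23. The order was reversed for variability. From the lowest to the highest of the 9 samples a heavy peak spanned 1.67 on the log2 scale in the median, a kappa peak 1.00 and a lambda peak 0.69, against 0.70 over all peaks. Sequencing depth per sample is unknown, since the files hold no counts.

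The check values of the libraries bear on all that follows. Both peaks at the Tlr9 gene itself had similar values in every sample (5.75 to 6.16 and 3.29 to 3.65) and neither passed in any comparison. Which part of Tlr9 is missing in KO is not stated in the labels, so these peaks check nothing about the knockout. Peaks were present at the B cell marker genes Ms4a1, Cd79a, Cd79b, Pax5 and Blnk and at all 5 ABC marker genes (Itgax, Tbx21, Zeb2, Fcrl5, Itgam). No peak lay at Cd8a, Lyz2 or Tnfrsf17, while the other T cell genes (Cd3e, Cd3d, Cd3g, Cd4, Lat) and macrophage genes (Csf1r, Cd14, Adgre1) had 5 and 4 peaks.

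In the heavy chain window, KO cells had lower accessibility than P915H cells over the part of the V region far from the D segments, while no peak near them passed. Of 24 peaks, 12 fell and 0 rose in KO, by 1.88-fold to 3.50-fold. Over all peaks 15.5% passed this test, 8.97% lower and 6.55% higher in KO (limma with genotype and replicate number, Benjamini-Hochberg over all 61540 peaks, adjusted p under 0.05, also for all tests below). The median difference of KO minus P915H over the 24 peaks was -0.96 on the log2 scale, beside -0.01 over all peaks. The 3 KO samples lay below all 3 P915H samples at 15 heavy peaks and above them at 1, where 22.7% and 19.5% of all peaks did so. Averaged over the 24 peaks, the log2 level was 1.90, 1.87 and 1.71 in KO replicates 1 to 3, 2.41, 2.29 and 2.63 in WT, and 2.51, 2.66 and 2.47 in P915H. In this mean the KO samples lay below all others, and WT and P915H overlapped. The summed CPM over the peaks was 137, 165 and 146 in KO, 171, 158 and 212 in WT, and 191, 194 and 173 in P915H. In that sum KO and WT overlapped.

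The count rested on few libraries. It was 3 without P915H replicate 2, 6 without P915H replicate 3 and 7 without KO replicate 2, and the count over all peaks dropped in the same fits from 9548 to 3225, 4731 and 3817. The median over the heavy peaks kept its sign, from -1.12 to -0.73, when any of the 9 samples was left out.

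**Figure D1:**
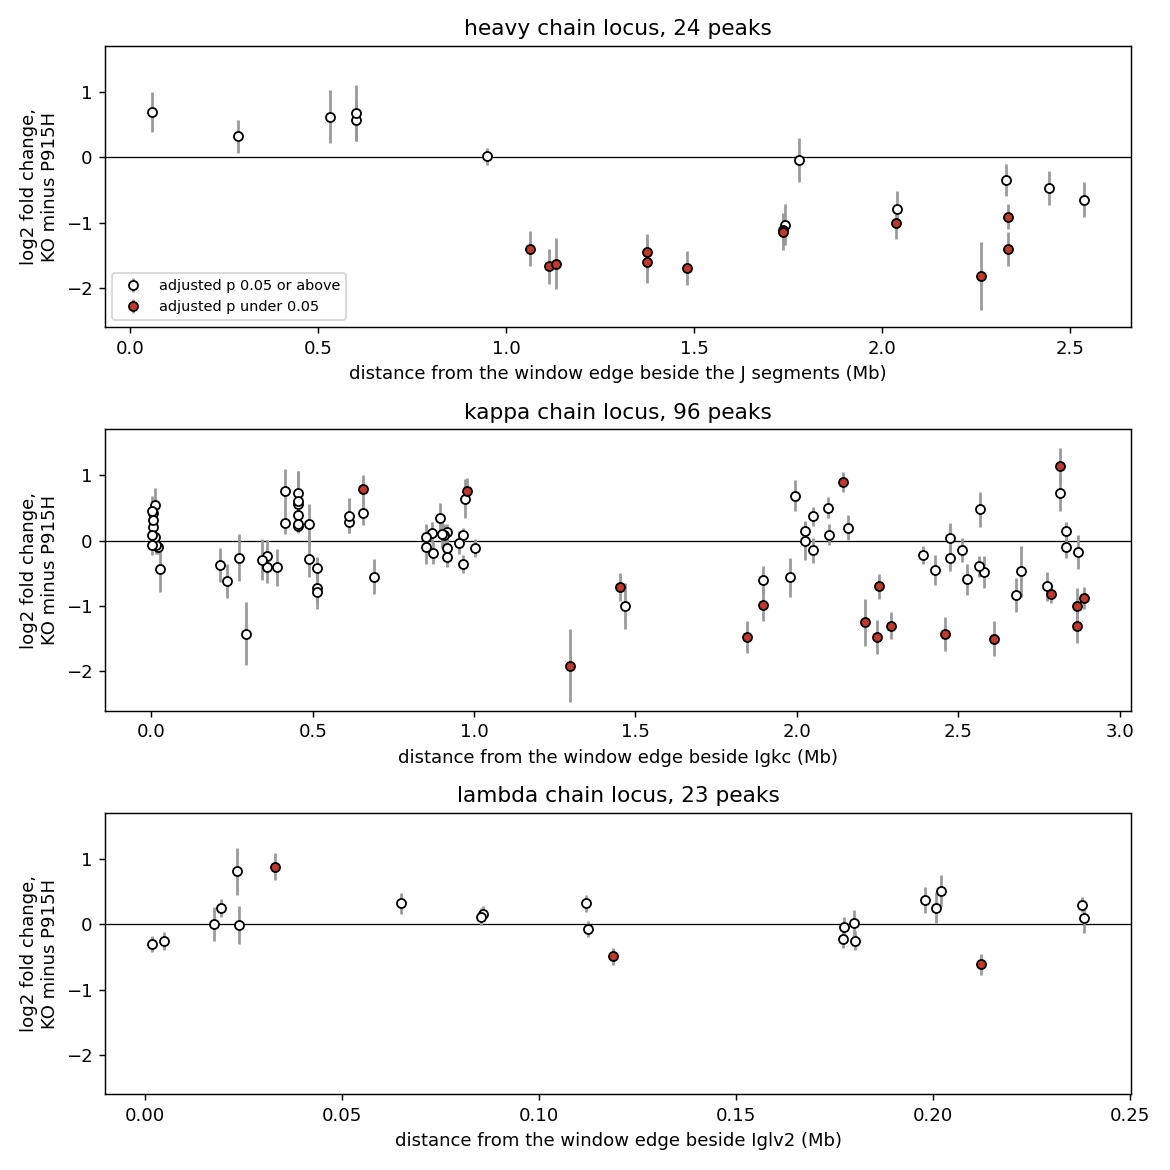
Log2 fold change of KO minus P915H with its standard error (bars) at each peak of the heavy (24), kappa (96) and lambda (23) windows, against the distance in Mb from the window edge beside the heavy J segments, Igkc or Iglv2. Filled points passed an adjusted p of 0.05; the heavy peaks nearest the J side lie above 0, and the 12 that passed all lie farther in and below 0.

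The position along the heavy locus separated the peaks. When the window was cut into 3 stretches of equal length, the stretch beside the J segments held 5 peaks, all with higher mean values in KO than in P915H (median 0.62) and none past the test. Those at Ighv2-6, near Ighv3-1 and a second near Ighv3-2 varied over the samples with the strongest Ighv3-2 peak (r 0.85, 0.91 and 0.93). The higher means of these peaks may thus not be separate observations. The same applies to peaks that fell with like values, such as the second Ighv1-27 peak and chr12:115765298-115765517 at Ighv8-13 (r 0.993). The middle stretch held 7 peaks, 6 of which fell (median -1.60). The far stretch held 12, of which 6 fell (median -0.96), and all 12 had lower means in KO. Beyond the far edge of the window, the next 2 Mb held 31 peaks, with 2 higher and 5 lower in KO and a median of -0.12. On the side of the constant genes the next 2 Mb held 212 peaks, 24 higher and 15 lower, with a median of 0.04.

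By V family, 4 of the 6 peaks at Ighv1 segments and 5 of the 6 at Ighv8 segments fell in KO, and the remaining 3 also had lower means. Some of these peaks share a segment. The Ighv8 peaks all lay at Ighv8-6, Ighv8-9 or Ighv8-13, and Ighv1-27 also had neighbouring peaks. The counts for the families and the window are thus of peaks, not of separate segments. The single Ighv2 peak, at Ighv2-6, did not pass and was higher in KO by 0.32. The peaks that fell outside these families lay between genes, near the pseudogenes Ighv10-2 and Ighv10-4 and near Ighv15-2. In all, 9 of the 13 peaks at V segments and 3 of the 11 between genes fell.

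The peak at the pseudogene Ighv1-38, chr12:114909928-114910178, had the smallest p of the locus. Its log2 values were 1.28, 0.73 and 0.68 in KO, 1.58, 1.85 and 2.08 in WT, and 2.46, 2.75 and 2.55 in P915H. The 3 genotypes did not overlap, with WT between the other two. KO was lower than P915H by 3.22-fold (log2 difference -1.69, SE 0.26, limma adjusted p = 0.00376), and the call held in 13 of 13 alternative analyses.

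A peak between genes near the pseudogene Ighv10-4, chr12:114544980-114545182, showed the same order. Its values were 0.49, 0.73 and 0.71 in KO, 1.91, 1.41 and 1.91 in WT, and 2.30, 2.57 and 2.08 in P915H. All KO samples lay below every WT and P915H sample, and WT below P915H. The difference to P915H was -1.67 (SE 0.27, limma adjusted p = 0.00416, held in 13 of 13 alternatives).

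At the pseudogene Ighv1-27, 2 neighbouring peaks fell. The first, chr12:114804512-114804933, had 1.29, 0.51 and 0.34 in KO, 1.35, 1.78 and 1.93 in WT, and 2.07, 2.42 and 2.44 in P915H, a difference of -1.60 (SE 0.32, limma adjusted p = 0.00953). KO replicate 1 was the high one of its group and lay close to the lowest WT sample. The second, chr12:114804946-114805187, had 1.36, 1.32 and 0.71 in KO, 2.14, 2.06 and 2.76 in WT, and 2.53, 2.66 and 2.56 in P915H, a difference of -1.45 (SE 0.27, limma adjusted p = 0.00731). Without P915H replicate 2 neither passed (limma adjusted p = 0.0663 and 0.0509). The first also missed without KO replicate 2 (0.0546), KO replicate 3 (0.0575) or P915H replicate 3 (0.0505).

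The largest heavy difference was at Ighv1-70, chr12:115691782-115691998, the only peak of the 143 whose mean lay below 0 in 1 genotype and above 1 in another. It had -0.07, -0.90 and 0.83 in KO, 1.04, 0.91 and 0.49 in WT, and 1.55, 2.52 and 1.21 in P915H. The spread within KO was wide, with replicate 3 inside the WT range, while KO and P915H did not overlap. The difference was -1.81 (SE 0.52, limma adjusted p = 0.041), the least precise of the 12. It was -1.16 with an adjusted p of 0.172 without KO replicate 2 and -1.23 with 0.26 without P915H replicate 2, and the call was also lost without KO replicate 1 (0.0862), P915H replicate 1 (0.0945), P915H replicate 3 (0.0507), WT replicate 1 (0.059) or WT replicate 2 (0.0545).

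Near Ighv15-2, chr12:114562542-114562733 had 0.02, -0.26 and 0.41 in KO, 1.38, 1.29 and 0.39 in WT, and 1.37, 1.74 and 1.96 in P915H. WT replicate 3 lay among the KO samples there, so KO and WT overlapped while KO and P915H did not. The difference of KO to P915H was -1.63 (SE 0.39, limma adjusted p = 0.0209), with an adjusted p of 0.094 without KO replicate 2, 0.111 without P915H replicate 2, 0.115 without P915H replicate 3 and 0.0511 after quantile normalization.

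Among the 6 strongest heavy peaks, those at Ighv8 segments fell and those between genes did not pass. At Ighv8-6, chr12:115165579-115165786 (77.2 CPM per kb) had 3.57, 3.37 and 2.68 in KO, 3.96, 4.05 and 4.51 in WT, and 4.17, 4.28 and 4.52 in P915H, a difference to P915H of -1.11 (SE 0.24, limma adjusted p = 0.0134). At Ighv8-13, chr12:115765066-115765291 (52.1 CPM per kb) had 3.28, 2.82 and 2.77 in KO, 3.39, 3.70 and 3.87 in WT, and 3.81, 3.95 and 3.83 in P915H, a difference of -0.91 (SE 0.19, limma adjusted p = 0.0111). In both, KO lay below all WT and P915H samples. The Ighv8-6 peak missed without P915H replicate 2 (0.0635) or replicate 3 (0.0621), and the Ighv8-13 peak without KO replicate 2 (0.0675), KO replicate 3 (0.0737) or P915H replicate 2 (0.0728).

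The other 4 strong peaks lay between genes. The strongest, chr12:114030352-114030488 near the pseudogene Ighv3-2 (147 CPM per kb), had 4.05, 4.86 and 4.65 in KO, 4.09, 4.03 and 4.72 in WT, and 4.61, 3.86 and 3.38 in P915H, with overlapping groups. A second peak near Ighv3-2 (91.2 CPM per kb) and one near Ighv3-1 (78.7) had the same profile over the samples, lowest in P915H replicate 3. The steadiest heavy peak, chr12:114378866-114379245 (78.9 CPM per kb), lies 12047 bp from Ighv12-3 and averaged 4.93 ± 0.10 in KO, 4.84 ± 0.18 in WT and 4.92 ± 0.08 in P915H (SD, n = 3). It stands between the peaks with higher and those with lower means in KO, with a difference of 0.01 (SE 0.13).

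**Figure D2:**
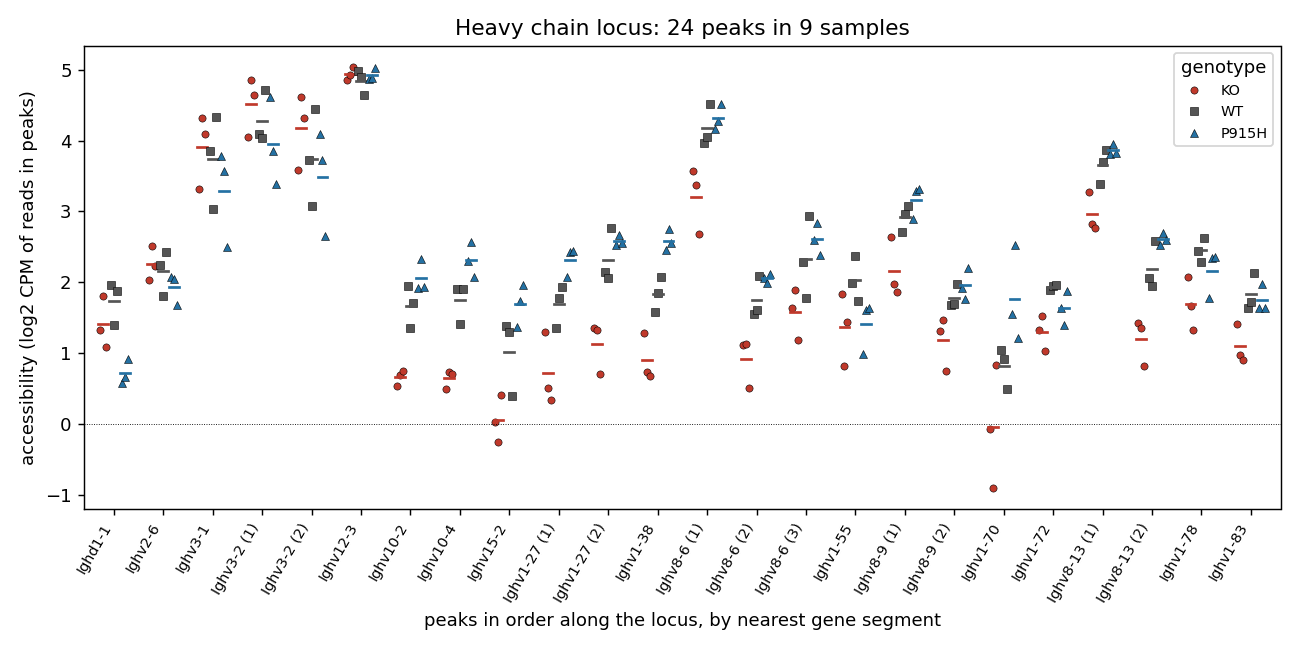
Log2 accessibility of the 24 heavy chain peaks in the 9 samples (points) with the mean of each genotype (bars), in order along the locus from the D and J side, each named by its nearest segment. From Ighv10-2 onward the KO samples lie below the P915H samples at most peaks, while the peak near Ighv12-3 is level in all samples.

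The kappa window was divided in the same way, with the peaks that fell in KO away from the constant gene Igkc. In KO against P915H 14 of 96 peaks fell and 4 rose, 18.8% in all beside the 15.5% over all peaks, and the median difference was -0.10. The stretch farthest from Igkc held 29 peaks, of which 10 fell and 2 rose (median -0.47). In the middle stretch 4 of 14 fell and 0 rose (median -0.36), and in the stretch that ends at Igkc 0 of 53 fell and 2 rose (median 0.08). Lower values in KO were found there too, since KO lay below all P915H samples at 6 of the 53 peaks and above them at 9. Over the whole window, KO samples lay below all P915H samples at 27 of the 96 peaks and above them at 15, where 22.7% and 19.5% of all peaks did so. Averaged over the 96 peaks, the log2 level was 2.89, 2.80 and 2.93 in KO, 3.12, 3.14 and 3.09 in WT, and 3.03, 3.10 and 3.02 in P915H, so in this mean KO was again below all other samples. The summed CPM over the peaks was 1070, 1060 and 1160 in KO, 1180, 1180 and 1190 in WT, and 1100, 1170 and 1070 in P915H. In that sum KO and P915H overlapped. The count of 18 became 11 and 9 when KO replicates 2 and 3 were left out in turn, and 6 and 10 when P915H replicates 2 and 3 were.

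The kappa families were unequal. At all 4 peaks of Igkv9 segments KO lay below P915H without overlap, and 2 passed the test. Both Igkv1 and both Igkv15 peaks fell, as did 2 of 3 Igkv17 peaks and the single Igkv20 peak. None of the 9 Igkv8, 6 Igkv10, 3 Igkv2, 3 Igkv5 or 2 Igkv3 peaks passed, nor did the single Igkv19 peak. Of the 14 Igkv12 peaks 1 rose and 1 fell, 1 of 5 Igkv14 peaks fell, and 1 of 5 Igkv11 and 1 of 8 Igkv6 peaks rose. The Igkv6 peaks mostly went the other way, with lower means in KO than in P915H at 6 of 8 (median -0.33).

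Igkv1-117 carried the largest drop at a kappa V segment, and Igkv1-110 had nearly the same values. At Igkv1-117, chr6:68120897-68121099 had 2.85, 1.95 and 2.08 in KO, 3.15, 3.81 and 3.44 in WT, and 3.55, 3.79 and 4.03 in P915H, a difference of -1.50 (SE 0.27, limma adjusted p = 0.0061). At Igkv1-110, chr6:68270347-68270540 had 2.87, 2.02 and 2.13 in KO, 3.16, 3.83 and 3.42 in WT, and 3.55, 3.73 and 4.03 in P915H, a difference of -1.43 (SE 0.26, limma adjusted p = 0.007). KO lay below all WT and P915H samples at both. The 2 peaks differed by at most 0.07 in any sample, so reads of near-identical copies may be shared between them. Both are included in the counts above, which may thus hold 1 difference under 2 names. The Igkv1-110 peak missed without KO replicate 3 (limma adjusted p = 0.0531).

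Pairs of V segments with such like values were more frequent within families, as read from the numbers in the segment names. All 9 samples agreed within 0.3 on the log2 scale in 4 of 213 pairs of peaks at different segments of a family (1.88%) and in 6 of 2126 pairs across families of a locus (0.282%). Beside the Igkv1 pair these were Igkv5-45 with Igkv5-43, Igkv2-116 with Igkv2-109 and Igkv9-129 with Igkv9-124. By this reading each lambda V segment counted as a separate family. Whether lambda segments belong together by sequence was not tested, so pairs among them may be miscounted as across families. Across families read in this way, Iglv1 and Iglv2 differed by at most 0.14 and Ighv1-27 and Ighv8-13 by at most 0.18. The values of these segments are uncertain, since no source used here says how reads that match several copies were counted. Whether any of these pairs shares reads was not tested, because no sequence of the V segments was at hand.

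At the pseudogene Igkv15-101, chr6:68481206-68481419 had 3.20, 2.23 and 2.87 in KO, 3.59, 4.22 and 3.63 in WT, and 4.04, 4.38 and 4.32 in P915H. KO lay below WT, and WT replicate 2 alone of the WT samples reached the P915H range. The difference of KO to P915H was -1.48 (SE 0.26, limma adjusted p = 0.00586). The peak at Igkv15-103 fell by 1.30 (limma adjusted p = 0.00408), and both calls held in 13 of 13 alternatives. The second of 2 peaks at Igkv17-127, chr6:67861612-67861844, had 1.04, 1.10 and 0.74 in KO, 1.89, 1.57 and 1.78 in WT, and 2.05, 2.31 and 2.45 in P915H, with no overlap among the genotypes. Its difference was -1.31 (SE 0.25, limma adjusted p = 0.00748, and 0.0518 without P915H replicate 2).

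Between genes, 18376 bp from the pseudogene Igkv13-87, chr6:68884244-68884425 had 0.88, 0.69 and 0.63 in KO, 1.91, 2.35 and 2.07 in WT, and 2.25, 2.00 and 2.35 in P915H. WT and P915H were alike here and KO stood below both. KO differed from P915H by -1.47 (SE 0.24, limma adjusted p = 0.00463, held in 13 of 13 alternatives). The largest kappa difference, -1.91 (SE 0.56, limma adjusted p = 0.0429) at chr6:69432330-69432507 near Igkv4-59, came with values of 0.68, 0.66 and -1.17 in KO, 1.27, 0.89 and 1.85 in WT, and 1.42, 1.82 and 2.68 in P915H. KO replicate 3 stood far below the rest, and without it the difference was -1.0 (limma adjusted p = 0.102). The call was also lost without KO replicate 2 (0.061), WT replicate 1 (0.0635), P915H replicate 1 (0.0532), replicate 2 (0.133) or replicate 3 (0.201).

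Of the 4 kappa peaks that rose in KO, 1 was held in 13 of 13 alternatives. It lies between genes, 3732 bp from the pseudogene Igkv15-97, at chr6:68587436-68587648, within the stretch where most calls were lower. It had 3.88, 3.80 and 3.79 in KO, 3.24, 3.03 and 3.02 in WT, and 2.73, 3.02 and 3.03 in P915H. KO was above both other genotypes, which overlapped, with a difference to P915H of 0.90 (SE 0.15, limma adjusted p = 0.00541).

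At the remaining kappa peaks that rose, KO and WT overlapped and P915H was the low genotype. Igkv11-125 (chr6:67913389-67913631) had 2.43, 2.90 and 2.16 in KO, 2.32, 2.46 and 2.33 in WT, and 1.47, 0.87 and 1.73 in P915H, a difference of KO to P915H of 1.14 (SE 0.28, limma adjusted p = 0.0225). The pseudogene Igkv12-47 (chr6:69751276-69751486) had means of 3.61 ± 0.27, 3.31 ± 0.03 and 2.85 ± 0.25 in KO, WT and P915H (SD, n = 3), a difference of 0.76 (limma adjusted p = 0.0231). Igkv6-32 (chr6:70074561-70074777) had 2.98 ± 0.15, 2.80 ± 0.35 and 2.18 ± 0.21, a difference of 0.79 (limma adjusted p = 0.0371). The Igkv11-125 call was lost without KO replicate 2 (0.129), P915H replicate 1 (0.0546) or P915H replicate 2 (0.112). That of Igkv12-47 was lost without KO replicate 2 (0.121) or 3 (0.131) or P915H replicate 2 (0.12) or 3 (0.107). That of Igkv6-32 was lost without KO replicate 2 (0.153) or 3 (0.157) or P915H replicate 1 (0.16), 2 (0.0746) or 3 (0.0898).

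**Figure D3:**
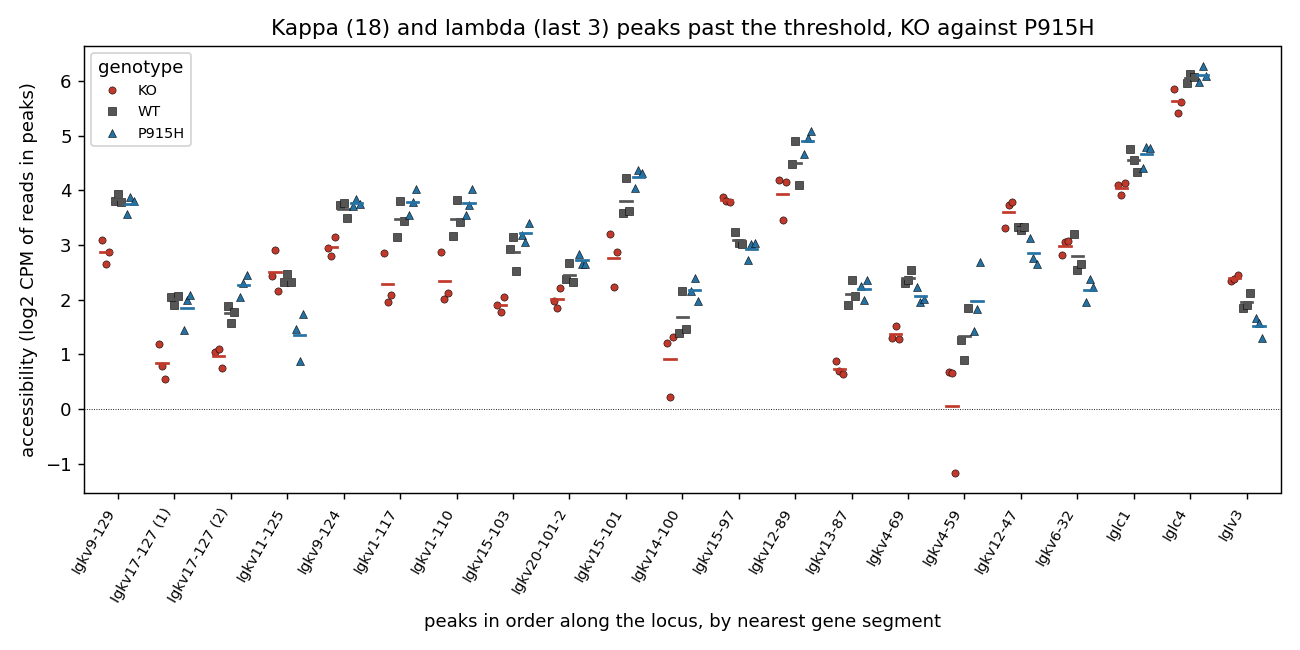
Log2 accessibility in the 9 samples (points) and genotype means (bars) at the 18 kappa and 3 lambda peaks that passed in KO against P915H, in order of coordinate and named by the nearest segment. At the 14 kappa peaks that fell, the KO samples lie under the P915H samples without overlap; at the 4 that rose they lie above.

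The 6 strongest kappa peaks did not pass in any comparison. A cluster of 6 peaks lies 13384 to 15432 bp from Igkv6-23, between chr6:70274317 and 70276568, and held the 3 strongest peaks of the kappa window. They are chr6:70275181-70275388 (379 CPM per kb), chr6:70275753-70275962 (354) and chr6:70275436-70275642 (298). The first had 6.34, 6.54 and 6.24 in KO, 6.27, 6.20 and 6.55 in WT, and 6.24, 6.11 and 6.07 in P915H, with a difference of 0.23 between KO and P915H (SE 0.12, limma adjusted p = 0.241). The second had 6.36, 6.11 and 6.31, then 6.33, 6.30 and 6.39, then 5.91, 6.19 and 5.90 in the same order, so P915H lay below all WT samples (P915H minus WT -0.34, limma adjusted p = 0.393). Of the next strongest, chr6:70709426-70709632 (151 CPM per kb) between Igkv3-1 and the J segments was level at 4.89 ± 0.16, 4.99 ± 0.04 and 4.98 ± 0.13 (KO, WT and P915H, SD, n = 3). The peak at Igkv12-44 (147 CPM per kb) averaged 4.77 ± 0.19, 4.94 ± 0.22 and 5.02 ± 0.15. The fifth, chr6:70274803-70275007 (150 CPM per kb), belongs to the cluster.

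Around the kappa J segments and Igkc, the constant gene to which a functional kappa rearrangement is spliced, 6 peaks were measured and none passed in any comparison. At Igkj5, chr6:70724262-70724753 had 1.93, 2.06 and 2.00 in KO, 1.96, 1.87 and 2.15 in WT, and 1.67, 1.64 and 1.41 in P915H, so that P915H lay below all other samples (KO minus P915H 0.42, SE 0.21, limma adjusted p = 0.228). Its neighbour chr6:70724841-70725064 was likewise lowest in P915H, with 2.93 ± 0.05, 2.98 ± 0.08 and 2.72 ± 0.12 (KO, WT and P915H, SD, n = 3). Beside Igkc, chr6:70725705-70725922 averaged 4.00 ± 0.13, 3.89 ± 0.01 and 3.68 ± 0.12, and here too P915H was the low group without overlap. The 3 peaks in and behind Igkc (chr6:70726355-70726790, chr6:70727127-70727538 and chr6:70727909-70728457) had overlapping groups. Differences of KO to P915H over the 6 peaks ran from -0.06 to 0.45.

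The lambda window showed no overall shift. In KO against P915H 2 of its 23 peaks fell and 1 rose (13.0%, beside 15.5% of all peaks), the median difference was 0.09, and the mean log2 level was 3.78, 3.93 and 3.73 in KO, 3.84, 3.68 and 3.79 in WT, and 3.69, 3.70 and 3.79 in P915H, with overlapping groups. None of the 3 calls held when KO replicate 2, KO replicate 3, P915H replicate 2 or P915H replicate 3 was left out, and the median was -0.07 without KO replicate 2.

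The strongest lambda peak, chr16:19146371-19146580 (296 CPM per kb), lies between genes and fell in KO. It had 5.86, 5.41 and 5.61 in KO, 5.96, 6.12 and 6.08 in WT, and 5.98, 6.27 and 6.10 in P915H, a difference of -0.49 (SE 0.13, limma adjusted p = 0.0292). KO lay below all WT and P915H samples, which overlapped. The peak chr16:19052919-19053128, 8624 bp from Iglc1, fell by 0.61 (4.05 ± 0.12 in KO and 4.66 ± 0.22 in P915H, SD, n = 3, limma adjusted p = 0.0298). It was also lost without KO replicate 1 (limma adjusted p = 0.0525). The peak that rose, chr16:19232188-19232410, lies in the noncoding gene Gm35545 and had 2.34, 2.38 and 2.45 in KO, 1.85, 1.90 and 2.12 in WT, and 1.67, 1.57 and 1.29 in P915H, with no overlap of the 3 genotypes. KO was higher by 0.88 there (SE 0.21, limma adjusted p = 0.0211).

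The lambda V, J and constant segments did not pass. Both peaks at Iglv1, the Iglv2 peak and both Iglv3 peaks had limma adjusted p from 0.168 to 0.976. At Iglv2, chr16:19260312-19260518 had 4.61, 4.54 and 4.27 in KO, 4.58, 4.50 and 4.54 in WT, and 4.56, 4.71 and 4.94 in P915H, and the groups overlapped. At the J segments, chr16:19200233-19200443 at Iglj2 (127 CPM per kb) had 4.82, 5.19 and 4.69 in KO, 4.80, 4.50 and 4.75 in WT, and 4.55, 4.47 and 4.73 in P915H, again overlapping. The peaks at Iglj1, Iglj3 and Iglc3 had differences of KO to P915H of 0.51, 0.37 and 0.25, with limma adjusted p of 0.198, 0.277 and 0.568. Of the other strong lambda peaks, chr16:19152657-19152881 (272 CPM per kb) averaged 5.87 ± 0.18, 5.97 ± 0.11 and 5.93 ± 0.11 in KO, WT and P915H (SD, n = 3). The peaks at chr16:19179336-19179600, chr16:19263337-19263543 and chr16:19088004-19088249 (176, 176 and 141 CPM per kb) had differences of KO to P915H of 0.16, -0.30 and -0.23, none past the test.

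KO was also compared with WT, which asks what the loss of TLR9 changed against the intact receptor. No peak of the 3 windows passed, and over all peaks 0.0195% did (0.0146% lower and 0.00487% higher in KO). The KO samples are those of the comparison with P915H, so the values of both are only set side by side. The median over the heavy peaks was -0.76, with 19 of 24 negative, the median over the kappa peaks -0.16, with 66 of 96 negative, and that over the lambda peaks 0.07. KO lay below all WT samples at 14 heavy, 25 kappa and 2 lambda peaks and above them at 0, 4 and 2, where 17.5% of all peaks lay below and 14.8% above. At an unadjusted p under 0.05 there were 15 of 24 heavy, 24 of 96 kappa and 3 of 23 lambda peaks, beside 11531 of all 61540.

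The smallest limma adjusted p in KO against WT was 0.0699 in the heavy window, at the second Ighv1-27 peak (difference -1.19), and 0.0592 in the kappa window. The latter was reached at Igkv9-129, chr6:67839598-67839801, with 3.09, 2.65 and 2.88 in KO, 3.80, 3.93 and 3.78 in WT, and 3.57, 3.88 and 3.81 in P915H, and at the peak 18376 bp from Igkv13-87 described above. KO lay below every other sample at both. In the lambda window it was 0.121, at the strongest peak (-0.43). The absence of calls depended on the analysis. Without KO replicate 1, 6 heavy, 8 kappa and 1 lambda peaks passed, and over all peaks 3340 in place of 12. In the fit without the replicate term, 10, 16 and 2 passed, and over all peaks 6846. With each sample centred on its median or quantile normalized, 3 kappa peaks passed in each case. Over all peaks the count was 1 or 2 when any sample other than KO replicate 1 was left out.

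P915H against WT asks what the changed receptor did against the intact one, and again no peak of the 3 windows passed, where 0.255% of all peaks did (0.252% lower and 0.00325% higher in P915H). Medians were 0.20 in the heavy, -0.06 in the kappa and -0.04 in the lambda window. P915H lay above all WT samples at 4 heavy peaks and below them at 3, at 1 and 14 kappa peaks, and at 1 and 5 lambda peaks, where 9.51% of all peaks lay above and 12.0% below. An unadjusted p under 0.05 was reached by 2 of 24 heavy, 6 of 96 kappa and 1 of 23 lambda peaks, beside 4749 of all 61540. Over all peaks the count of 157 depended on single libraries. It was 7 and 29 when WT replicates 1 and 2 were left out in turn, 16, 22 and 103 for P915H replicates 1, 2 and 3, and 90 and 57 for KO replicates 2 and 3.

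The peaks with the smallest p in that comparison were all lower in P915H. In the heavy window it was the one nearest to the D segments, chr12:113487773-113487952, 5581 bp from Ighd1-1. It had 0.58, 0.66 and 0.92 in P915H, 1.96, 1.39 and 1.87 in WT, and 1.33, 1.81 and 1.08 in KO (P915H minus WT -1.02, limma adjusted p = 0.376). P915H was below both other genotypes there, which overlapped. In the kappa window it was the Igkv11-125 peak named above (-1.01, limma adjusted p = 0.302). In the lambda window it was chr16:19027204-19027450, with means of 4.71 ± 0.06 in P915H, 5.09 ± 0.09 in WT and 5.01 ± 0.07 in KO (SD, n = 3, -0.38, limma adjusted p = 0.316).

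Ordering the 3 genotype means gave P915H above WT above KO at 14 of 24 heavy peaks, 32 of 96 kappa peaks and 6 of 23 lambda peaks. The opposite order, KO above WT above P915H, stood at 4 heavy, 24 kappa and 9 lambda peaks. The share of each order over all peaks was not counted, so whether these orders are particular to the windows cannot be said.

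Other antigen receptor loci were set beside these windows. Over the heavy chain constant genes, next to the heavy window on the other side of the J segments, 8 of 29 peaks rose and 1 fell in KO against P915H. Their mean log2 level was 2.99 ± 0.12 in KO, 2.74 ± 0.10 in WT and 2.42 ± 0.10 in P915H (SD over samples, n = 3). These means ran in the opposite order to those of the heavy window, where WT and P915H overlapped. The median difference over the 29 peaks was smaller, 0.24 for KO minus P915H and 0.02 for KO minus WT. Their summed CPM overlapped, with 289 to 323 in KO, 294 to 299 in WT and 268 to 304 in P915H. Over the T cell receptor loci, whose genes are not rearranged in most B cells, 31 of 62 peaks fell and 1 rose, with a median of -0.84 and mean levels of 2.05 ± 0.19 in KO, 2.59 ± 0.09 in WT and 2.73 ± 0.12 in P915H. A share lower in KO as large as that of the heavy V region was thus also found outside the immunoglobulin loci. Among all peaks grouped by level into 10 classes of equal size, the share lower in KO was 4.7% to 10.5% and the share higher 1.4% to 11.9%.

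**Figure D4:**
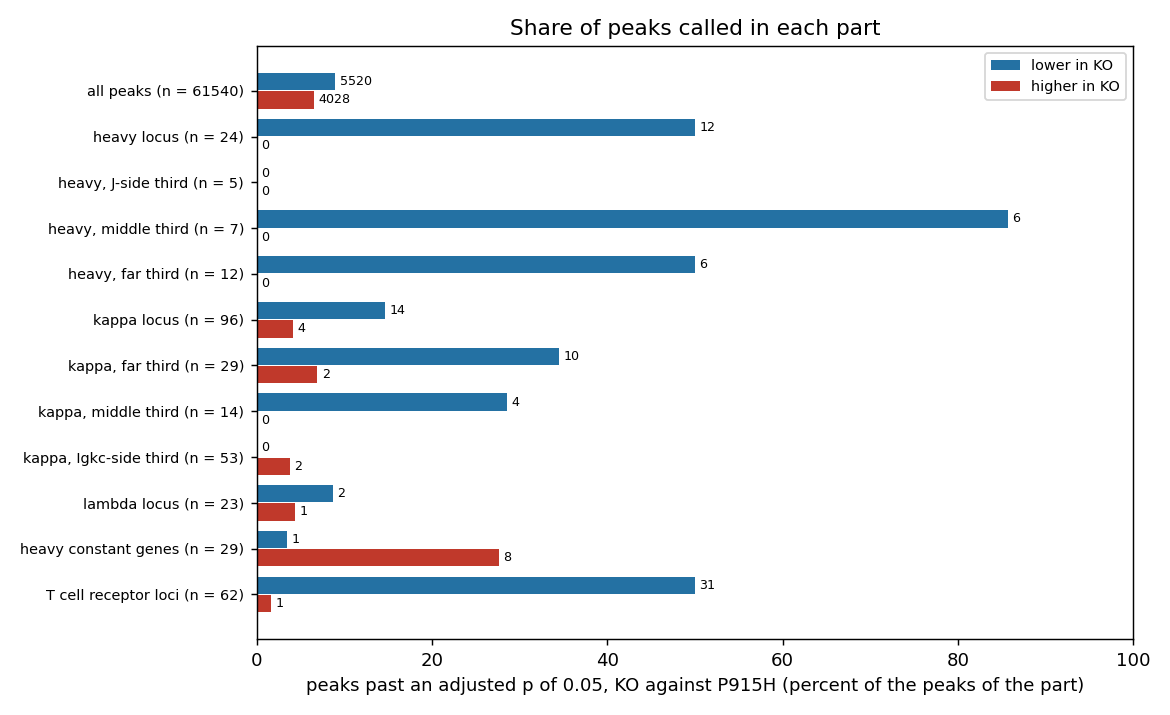
Percent of peaks lower (blue) and higher (red) in KO than in P915H at an adjusted p under 0.05, for all peaks, the 3 windows and their stretches, the heavy constant genes and the T cell receptor loci, with the number of peaks at each bar. The heavy window and the T cell receptor loci have 50.0% of their peaks lower in KO, while the peaks that passed over the constant genes were mostly higher.

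A few strong peaks followed individual samples rather than genotypes. The 3 peaks near Ighv3-1 and Ighv3-2 and peaks of the kappa cluster beyond Igkv6-23 were low together in KO replicate 1, WT replicate 2 and P915H replicate 3. At chr12:114031216-114031382 near Ighv3-2 the values were 3.59, 4.61 and 4.32 in KO, 3.73, 3.07 and 4.44 in WT, and 4.09, 3.73 and 2.65 in P915H. At chr6:70276365-70276568 of the kappa cluster they were 3.81, 4.75 and 4.79, then 4.27, 3.80 and 5.02, then 4.58, 4.12 and 2.85 in the same order. With the strongest heavy peak as reference, 2 heavy and 3 kappa peaks had r above 0.9 over the 9 samples, as had 610 of the 61539 other peaks (0.991%). The samples share the per-replicate adjustment of the values, so r is given as a description only.

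**Figure D5:**
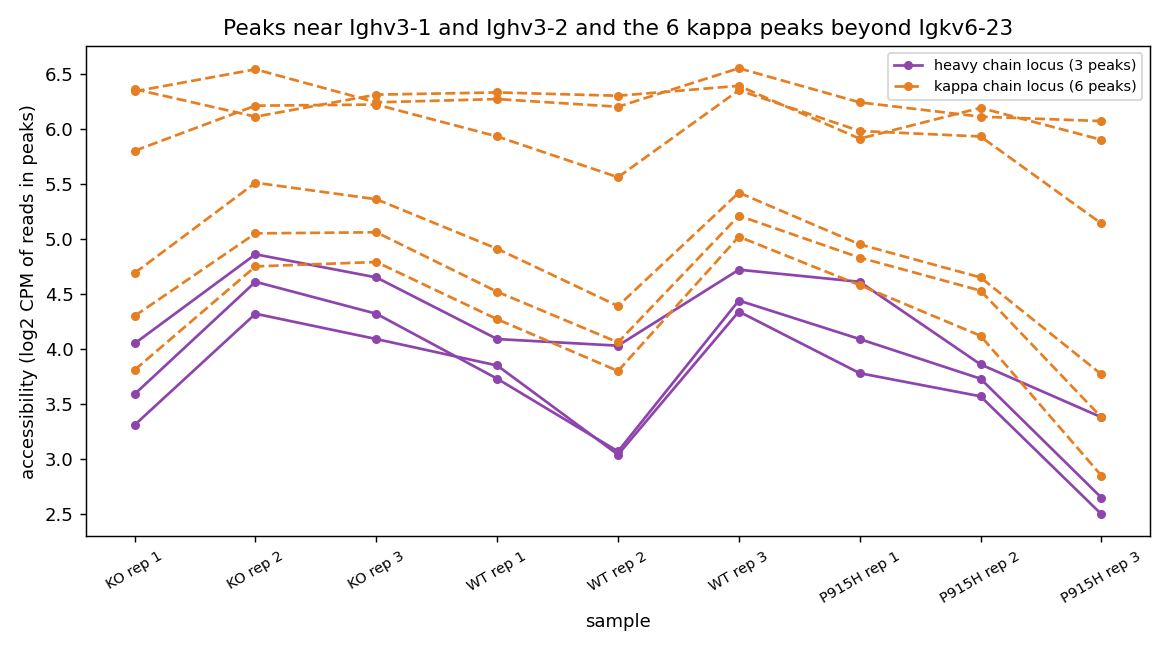
Log2 accessibility over the 9 samples of 3 heavy peaks near Ighv3-1 and Ighv3-2 (purple, solid) and of the 6 kappa peaks beyond Igkv6-23 (orange, dashed). The lines dip in KO replicate 1, WT replicate 2 and P915H replicate 3 at all but the 2 strongest kappa peaks, which stay near 6.

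Genes whose products act on the immunoglobulin loci were followed together with Cd79a, Cd79b, Igll1, Vpreb1 and Vpreb3. This list held 29 genes, of which 26 had a peak in or within 2 kb, 228 peaks in all. Rag1, Rag2 and Igll1, which belong to developing B cells, had none, while Vpreb1 and Dntt, also genes of developing B cells, had 1 and 3, none past the test. The Vpreb1 peak averaged 5.23 ± 0.03 in KO, 5.19 ± 0.11 in WT and 5.10 ± 0.09 in P915H (log2, SD, n = 3). In KO against P915H 15 of these peaks rose and 18 fell, with a median of 0.00 and, in all, 14.5% past the test beside 15.5% of all peaks. The list as a whole was thus near the share over all peaks. The genes named next are a few of the list, to be read beside the 8.97% of all peaks that fell and the 6.55% that rose. At Ebf1 and Pax5, factors of B cell identity, 7 of 44 and 5 of 24 peaks fell and 2 rose at each. At Ikzf3 (Aiolos), 4 of 17 rose and 0 fell, and at Spib 2 of 7 rose. At Pou2f2 (Oct-2), 2 of 19 rose and 1 fell, and none of the 5 peaks at Pou2af1 passed. The largest of these differences was at Ebf1, chr11:44853004-44853248, with 0.72 ± 0.63 in KO, 2.36 ± 0.49 in WT and 2.79 ± 0.19 in P915H (SD, n = 3, KO minus P915H -2.07, limma adjusted p = 0.00531). In KO against WT and in P915H against WT none of the 228 peaks passed.

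Marker genes of cell types and states were read beside the 6.55% of all peaks that rose and the 8.97% that fell in KO against P915H. At plasmablast and plasma cell genes 7 of 40 peaks rose and 0 fell, 17.5% in all, 5 of them at Tent5c, and the summed CPM over the list was 558 to 577 in KO, 498 to 500 in WT and 475 to 497 in P915H. At B cell genes 3 of 47 rose and 8 fell, 23.4% in all (766 to 819, 823 to 840 and 825 to 878), and at ABC genes 4 of 45 rose and 2 fell, 13.3% in all (406 to 413, 401 to 414 and 376 to 400). At T cell genes 2 of 5 peaks rose, those at Cd3e and at Cd3d with Cd3g, and 1 fell, at Lat, with sums of 71.2 to 81.9, 79.0 to 86.8 and 76.2 to 89.6. At macrophage genes 1 of 4 fell, at Csf1r (31.4 to 38.4, 39.9 to 47.2 and 45.1 to 51.3). In KO against WT no peak of these lists passed in limma, while an unadjusted p under 0.05 was reached by 9 plasmablast and plasma cell, 10 B cell, 6 ABC, 3 T cell and 1 macrophage peaks. In P915H against WT 1 peak passed, at Tent5c, lower in P915H by a log2 difference of -0.88 (limma adjusted p = 0.0342). The part of these differences in the values of the V regions was not tested.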

How the data were processed

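ATAC-seq libraries of 9 samples, 3 per genotype, were analysed from their deposited peak values. Per the submitters' processing notes, build mm10 was used with Bowtie2 2.3.3, Trim Galore 0.6.5, MACS2, limma, Picard 2.18.12 and SAMtools, whose settings are not stated. Pooling before peak calling, normalization, a shift of insertion sites and the treatment of reads matching several copies are not given in the sources used. The deposited values are log2 values per peak and sample. Summed as antilogs, a sample reaches 0.987 to 1.014 times the total that CPM would give. Replicate numbers 1, 2 and 3 had equal means over the genotypes at each peak, to within 1.8e-14, so a replicate effect had been removed before deposit. Whether equal numbers mark paired samples cannot be checked in such values, and the labels say no more than the shared number.

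All 61540 peaks were fitted together with limma (version 3.58.1, under R 4.3.3, trend on intensity) on genotype and replicate number, which leaves 4 residual degrees of freedom (6 without the replicate term). Tests were two-sided. P-values were adjusted over the whole table by Benjamini-Hochberg, with a threshold of 0.05, and each SE comes from the fit. All peaks were kept, without a pseudocount. SDs within a genotype understate the spread, since the replicate effect is gone. The fit was also run on simulated data with independent noise at each peak. That setting differs from the data here, so the run gives no error rate for the calls. CPM per kb is the mean antilog over the 9 samples divided by peak length (end minus start). Segments and genes came from the RefSeq table of GRCm38.p6, the assembly of mm10. Python 3.11.15 with NumPy 2.4.6, pandas 2.3.3 and matplotlib 3.10.9 served for tables and plots.

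The windows, lists and rules were chosen with earlier results of these data known. Named were, per window, the 6 strongest peaks, up to 6 peaks per direction that passed without overlap, by size of fold change, the peak with the smallest p where none passed, peaks within 2 kb of D, J and light chain constant segments, and peaks with a mean under 0 in 1 genotype and above 1 in another. Any other peak named was picked with its values in view. Not every gene of the lists is reported here by name. The alternative analyses changed the replicate term, centring on the median, quantile normalization, a filter on a mean log2 value of at least 1, and each sample left out in turn.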

Additional observations from a re-analysis of the deposited data

How the results depend on the processing

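The alternative analyses of KO against P915H kept the sign of all 33 differences that passed in the 3 windows, and 9 (without P915H replicate 2) to 32 (without WT replicate 3) of them still passed with 1 sample left out. Counts of peaks past the threshold with 1 sample left out ranged from 3225 to 10991 over all peaks, 3 to 13 in the heavy, 6 to 22 in the kappa and 0 to 4 in the lambda window for KO against P915H. For KO against WT they ranged from 1 to 3340, 0 to 6, 0 to 8 and 0 to 1. For P915H against WT they ranged from 7 to 111 over all peaks and were 0 in the 3 windows. Medians of the lambda window ranged from -0.07 to 0.19 (KO minus P915H) and from -0.08 to 0.09 (KO minus WT), and the kappa median of P915H minus WT from -0.13 to -0.02. The cause of these shifts was not tested.

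With no replicate block the counts were 17069 over all peaks, 15 heavy, 34 kappa and 6 lambda peaks for KO against P915H, 6846, 10, 16 and 2 for KO against WT, and 1060 over all peaks, 0 heavy, 0 kappa and 1 lambda peak for P915H against WT. That fit counts more degrees of freedom than the values hold. For KO against WT, centring on the median gave 643 peaks over all and 3 in the kappa window, quantile normalization 705 and 3, and the filter on low values 1 over all. The median of KO minus P915H over all peaks, -0.01, was 0.01 under centring on the median and under quantile normalization. The unknown depth, 3 samples per genotype and near-identical V segments limit the precision.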

Other observations

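Of the 610 peaks whose values followed the strongest heavy peak over the 9 samples with r above 0.9, 43 lay on chromosome X (7.05%, beside 2.00% of all peaks) and 33 on chromosome Y (5.41%, beside 0.242% of all peaks). In the 2 Mb beside the kappa window, 2 of 58 peaks were higher and 8 lower in KO than in P915H on the side far from Igkc, and 6 and 6 of 99 on the side of Igkc. In the 2 Mb beside the lambda window the counts were 3 and 6 of 110 and 0 and 3 of 60.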
